A study of Mus musculus with 25 samples.

Results

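The collagen gene family was followed through mouse liver development, from the fetal organ at embryonic day 11.5 (E11.5) to the adult. A gene was a member if its single annotated symbol read Col, a number, a and a number, and it was represented by its probe set with the highest mean log2 intensity over the stages. This gave 42 collagen genes among the 18194 genes measured: 11 for fibrillar chains, 6 for type IV chains of the basement membrane and 25 for other types. The collagen symbols Col6a6, Col21a1 and Col28a1 had no probe set of their own and were not analysed here. Total RNA came from whole livers of random-bred C57/B6 mice, for which the labels give no genetic change and no treatment. Each of 14 stages is 1 pool, made of 12 livers for E11.5, 9 for E12.5 and E13.5, 6 for E14.5 and E15.5, and 3 for every stage from E16.5 on. The 8 fetal pools covered E11.5 to E18.5 in steps of 1 day, and the 6 later pools were the day of birth (Day0), days 3, 7, 14 and 21 (Day3 to Day21) and the adult at 18 weeks. RNA of 11 stages was hybridised to 2 Affymetrix arrays each and that of E18.5, Day7 and Day14 to 1, 25 arrays in all.

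Collagens are triple helical proteins of the extracellular matrix. Their chains are hydroxylated and folded in the endoplasmic reticulum (ER), secreted, trimmed and crosslinked. Fibrillar collagens (types I, III and V in most soft tissues) form the banded fibrils of stroma, type IV forms the network of basement membranes, and types such as VI, XIV, XVI and XVIII attach to fibrils or to basement membranes. In liver, stellate cells, portal fibroblasts and the capsule are known sources of fibrillar collagen, sinusoidal endothelium adds type IV, and hepatocytes are a known source of type XVIII, whose C-terminal fragment is endostatin. In bulk tissue fewer cells of a type and less RNA per cell cannot be told apart.

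Repeat arrays of a stage differed by a standard deviation (SD) of 0.111 to 0.216 log2 units over all genes, and the array medians lay between 5.41 and 5.53. Across 18194 genes, deviations from the nearest stages with 2 arrays on either side correlated at r = 0.50 between E18.5 and Day7, which each have 1 array and share no flanking stage. The other pairs of stages compared in this way lay between -0.32 and 0.40, with Day14, also 1 array, at 0.34 with E18.5 and at 0.33 with E16.5. The E18.5 pool also carried skeletal muscle transcripts: the 12 muscle markers averaged 6.94 there and 5.29 to 5.60 in the other pools, with Acta1, the actin of skeletal muscle, at 9.56 against 5.25 to 6.03. Against the threshold defined in the next paragraph, all 11 hepatocyte markers were above it in at least 1 pool and 6 of them in every pool. None of 9 cartilage and bone markers and none of 8 neural markers were above it in any. Of 10 gut, pancreas and lung markers 4 were above it in at least 1 pool. The mean of that list ran from 5.31 at E12.5 to 6.16 on Day14, and its source was not tested. Values at E18.5, Day7 and Day14 are therefore given with the results that leave them out.

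Of the 42 collagens 19 were above a threshold of 6.68 log2 units in at least 1 pool, and the rest are called dim. The threshold is the 95th percentile of the highest stage means of 39 olfactory receptor genes, which liver is not known to use. The 19 comprised 7 fibrillar genes (Col1a1, Col1a2, Col3a1, Col5a1, Col5a2, Col5a3 and Col27a1), the type IV genes Col4a1 and Col4a2, and 10 others (Col6a1, Col6a2, Col6a3, Col7a1, Col9a1, Col13a1, Col14a1, Col16a1, Col18a1 and Col25a1). Just inside lay Col25a1 with a highest stage mean of 6.79, Col7a1 with 6.83 and Col5a3 with 6.83. Just outside lay Col20a1 with 6.53 and Col4a3 with 6.32. Among the 23 dim members were the cartilage collagens Col2a1 (highest stage mean 5.55), Col9a2 (5.38), Col9a3 (5.38) and Col10a1 (5.65), the remaining type IV chains Col4a3 to Col4a6, and Col15a1 (5.32), the closest relative of Col18a1. Col9a1, the remaining type IX gene, was above the threshold on its chosen probe set (highest stage mean 7.47), while its other set spanned 4.85 to 5.34. Over all genes 9629 of 18194 were above the threshold.

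**Figure D1:**
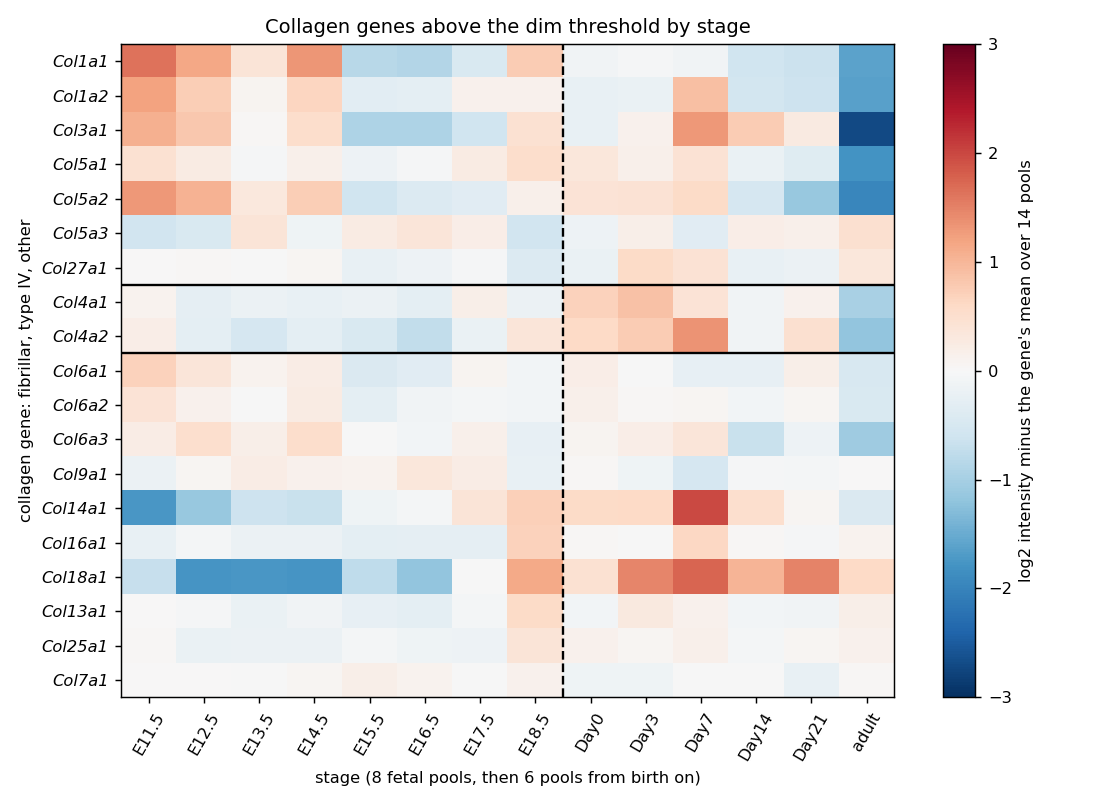
Each cell is the log2 intensity of a collagen gene (rows, the 19 genes above the dim threshold, grouped as fibrillar, type IV and other) in a stage (columns, 8 fetal and 6 later pools) minus its mean over the 14 pools. Col1a1, Col3a1 and Col5a2 are higher in each pool from E11.5 to E14.5 than in any from E15.5 to E17.5. So are Col27a1, Col6a1, Col6a2 and Col6a3, by smaller margins. Col18a1 and Col14a1 run from low to high, and the adult column is the lowest for 10 of the 19 genes.

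Upstream sequence is shown for 3 members described in full below that had an entry among the promoter windows: Col1a2 and Col3a1, which were high in early fetal liver, and Col18a1, which was high after birth. The windows hold the 250 bases before the annotated start, taken from RefSeq on build GRCm38.p6 and written 5′ to 3′ on the gene's strand. Capitals mark 3 motifs searched on both strands: TATAAA, the TATA box, then CCAAT, the CCAAT box, and GGGCGG, the GC box. A match on the opposite strand appears as the reverse complement. Entries were found for 33 of the 42 members, 36 windows in all, and for 16 of the 19 above the threshold; those without one were Col1a1, Col5a2 and Col14a1. Col18a1 has a pair of windows, since its transcripts start at separate places.
Col1a2, chr6:4505368-4505617, plus strand: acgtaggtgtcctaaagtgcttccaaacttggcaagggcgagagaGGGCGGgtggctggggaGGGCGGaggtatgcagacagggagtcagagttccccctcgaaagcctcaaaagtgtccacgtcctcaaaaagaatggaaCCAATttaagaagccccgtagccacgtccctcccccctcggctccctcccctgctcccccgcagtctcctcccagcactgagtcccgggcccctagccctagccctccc
Col3a1, chr1:45311288-45311537, plus strand: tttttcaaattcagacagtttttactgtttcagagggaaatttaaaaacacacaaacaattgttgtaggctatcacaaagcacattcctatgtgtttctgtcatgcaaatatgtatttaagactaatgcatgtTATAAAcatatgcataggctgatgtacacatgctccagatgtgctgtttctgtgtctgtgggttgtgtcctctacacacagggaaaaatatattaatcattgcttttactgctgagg
Col18a1, chr10:77166531-77166780, minus strand: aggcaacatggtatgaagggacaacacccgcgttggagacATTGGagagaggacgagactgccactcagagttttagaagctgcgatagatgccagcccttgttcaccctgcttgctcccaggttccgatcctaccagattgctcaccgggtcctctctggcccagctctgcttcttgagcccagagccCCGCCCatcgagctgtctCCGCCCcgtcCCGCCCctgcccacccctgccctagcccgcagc
Col18a1, chr10:77113706-77113955, minus strand: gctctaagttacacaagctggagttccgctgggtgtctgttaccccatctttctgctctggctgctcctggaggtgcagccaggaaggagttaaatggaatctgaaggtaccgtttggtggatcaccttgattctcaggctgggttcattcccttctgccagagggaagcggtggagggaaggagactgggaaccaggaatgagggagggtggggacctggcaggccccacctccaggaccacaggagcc

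The window of Col1a2 held 1 CCAAT and 2 GGGCGG and was 62.0% G and C. That of Col3a1 held 1 TATAAA, whose first base lay at -117 from the annotated start, neither of the other motifs, and was 35.2% G and C. The Col18a1 window at 77166531 held 1 CCAAT and 3 GGGCGG on the opposite strand, and the one at 77113706 held none of the 3. Over all collagen windows TATAAA occurred in 5 of 36, CCAAT in 13 and GGGCGG in 21, while 12.37%, 33.85% and 32.74% of 32851 windows of all genes held them. A match of letters describes the window and shows no bound factor.

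The chains of type I collagen, the main fibril of scar and capsule, were high in the earliest livers and lowest in the adult. Col1a1 stood at 9.04 and 9.02 on the repeat arrays of E11.5, at 8.69 and 8.46 at E12.5, at 7.80 on both at E13.5 and at 8.84 and 8.62 at E14.5. It was then at 6.57 and 6.56 at E15.5, 6.66 and 6.38 at E16.5 and 7.01 and 6.91 at E17.5. The arrays of the first 4 stages and of the next 3 did not overlap, a split read from these values that was not counted over all genes. After 8.16 on the single E18.5 array it was at 7.49 and 7.11 on Day0, 7.54 and 7.19 on Day3, 7.30 on Day7, 6.80 on Day14, 6.81 and 6.72 on Day21 and 5.91 and 5.71 in the adult. The adult arrays were the lowest of all 25.

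Col1a2, the partner chain of Col1a1 in type I collagen, had the same high start, with stage means of 10.34 at E11.5, 9.87 at E12.5, 9.20 at E13.5 and 9.77 at E14.5. Those of E15.5 to E17.5 were 8.82, 8.83 and 9.26, so that E17.5 lay above E13.5 and the spans overlapped. The adult arrays read 7.40 and 7.62. The chains parted on Day7, where Col1a2 stood at 10.04, above every pool since E11.5, while Col1a1 at 7.30 was level with Day0 and Day3. The difference between the probe sets, Col1a2 minus Col1a1, ran from 1.04 to 1.41 log2 units at E11.5 to E14.5, from 2.26 to 2.30 at E15.5 to E17.5 and reached 2.73 on Day7. Both the size of that difference and its change depend on the probes. From E14.5 to E15.5 the chosen Col1a2 set differed by -0.95 and another set of the gene by -1.82. Across the 14 pools the chains correlated at a Pearson r of 0.85.

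Col3a1, the chain of the thinner reticular fibrils, combined on its chosen probe set an early fetal and a juvenile high with the deepest adult low. Its arrays read 11.58 and 11.46 at E11.5, 11.41 and 11.13 at E12.5, 10.62 and 10.37 at E13.5, and 11.18 and 10.77 at E14.5. They read 9.59 and 9.47 at E15.5, 9.65 and 9.43 at E16.5, with a stage mean of 9.85 at E17.5. From 10.92 at E18.5 the values passed through 10.51 and 9.98 on Day0 and 10.83 and 10.36 on Day3 to 11.76 on Day7, 11.21 on Day14 and 10.74 on both arrays of Day21. The adult arrays, at 7.76 and 7.73, lay below all others. On the chosen probe sets Col3a1 minus Col1a1 was 2.24 to 3.22 log2 units up to Day3, 3.97 to 4.46 from Day7 to Day21 and 1.94 in the adult. The second probe set of Col3a1 was highest at E12.5 (7.97) and stood at 5.63 at E15.5 and 7.06 on Day7. It then read 5.34 on Day14, 5.36 on Day21 and 4.58 in the adult, and so had no high on Day14 or Day21.

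Type V collagen nucleates fibrils of type I. Its gene Col5a2, a neighbour of Col3a1 on the chromosome, had stage means of 9.21 at E11.5, 8.63 at E14.5, 7.31 at E15.5, 8.06 at E18.5, 8.46 on Day7, 7.40 on Day14, 6.76 on Day21 and 5.95 in the adult. Col5a1 varied less, between 7.74 and 8.41 over the 8 fetal pools and between 7.52 and 8.33 from Day0 to Day21, and then stood at 6.10 in the adult. Col5a3 was close to the threshold throughout, at 5.77 to 6.83, and was the only fibrillar member above the threshold with its highest value in the adult. Col27a1, a fibrillar chain of cartilage and other tissues, stayed between 7.92 and 8.90. Over the 14 pools r was 0.91 for Col1a2 and Col5a2, 0.89 for Col1a1 and Col5a2, and 0.76 for the neighbours Col3a1 and Col5a2. The chosen set of Col5a3 ran the other way, at -0.78 with Col1a1, -0.76 with Col1a2, -0.71 with Col3a1, -0.68 with Col5a1 and -0.73 with Col5a2. These values rest on a variable signal that was under the dim threshold in most pools. These correlations rest on single pools that share their arrays.

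**Figure D2:**
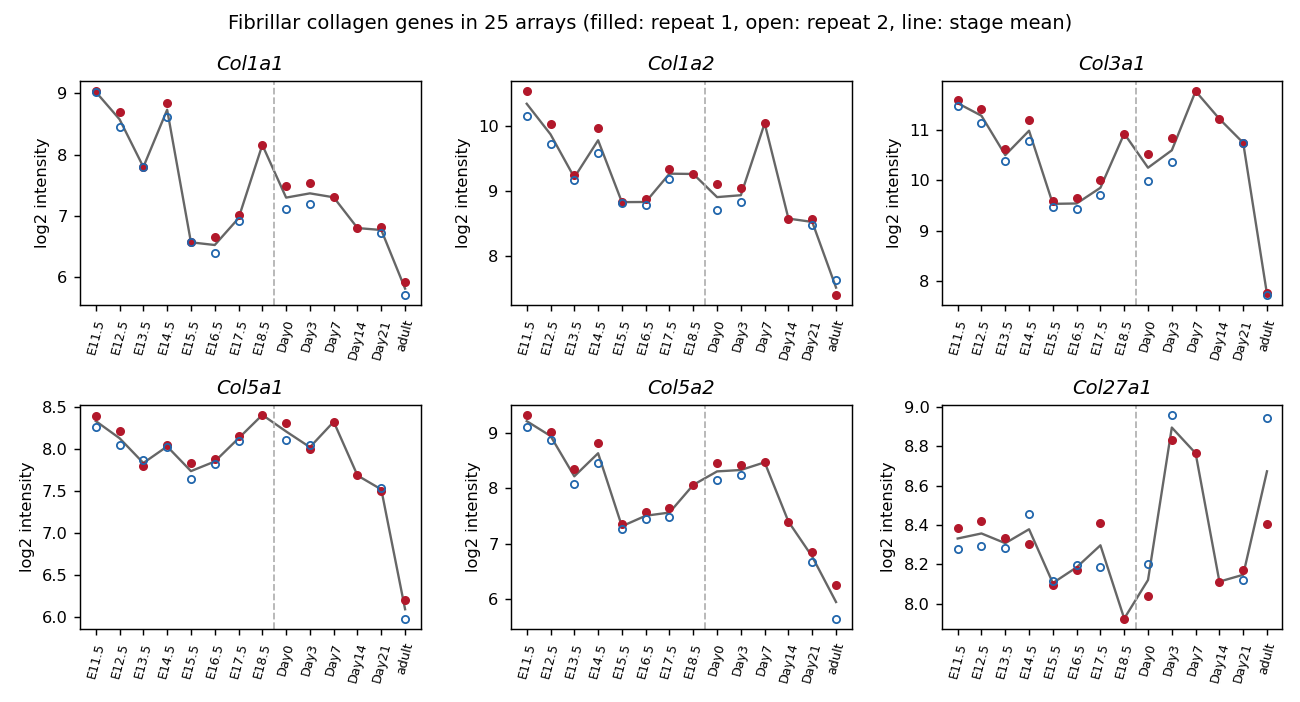
Log2 intensity (y axis) of 6 fibrillar collagen genes by stage (x axis), 1 panel per gene; filled and open points are the first and the repeat array and the line joins the stage means. Col1a1 is at 8.73 at E14.5 and 6.57 at E15.5, Col3a1 is at 11.76 on Day7 and 7.75 in the adult, and Col27a1 stays between 7.92 and 8.90.

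The steps between neighbouring stages were tested with limma on all 25 arrays. Their errors come from repeat arrays of the same pools, so they compare single pools and leave out differences between litters. A call required an adjusted p (Benjamini-Hochberg, all genes) under 0.05 and a difference of 1 log2 unit (2-fold) or more. From E14.5 to E15.5 Col1a1 fell by 2.17 ± 0.14 (standard error, SE), 4.49-fold, Col3a1 by 1.45 ± 0.19, 2.72-fold, and Col5a2 by 1.32 ± 0.18, 2.49-fold, with limma adjusted p-values of 1.34e-07, 1.54e-04 and 1.91e-04. Of all genes 1.17% were called down at this step. Col1a2 (-0.95 ± 0.16) and Col6a1 (-0.65 ± 0.10) moved the same way and stayed under 1 log2 unit. The 3 calls held in each alternative tried, including other scalings and the omission of single arrays. On other probe sets of these genes the difference was -0.43 for Col1a1, whose second set spans only 6.33 to 7.15, -1.71 for Col3a1, -1.08 for Col5a2 and -1.82 for Col1a2. At the same step the hepatocyte marker list went from a mean of 8.42 to 9.99 and the stellate and mesenchymal list from 7.06 to 6.67, and their part in the difference was not tested.

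Between E17.5 and E18.5, Col1a1 was called up by 1.20 ± 0.18 and Col3a1 by 1.07 ± 0.24 (limma adjusted p = 2.94e-04 and 0.00476), with 2.32% of all genes called up. This step ends in the single array with the muscle transcripts, whose part was not tested. The second probe set of Col3a1 went the other way, by -0.67, and that of Col1a1 by -0.14; without the second array of E17.5 the step of Col3a1 was 0.92, and under quantile normalisation 0.64, and not called. From E17.5 straight to Day0, each with 2 arrays, no collagen was called by limma, where 2.61% of all genes were called up and 1.26% down.

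On Day7 a second high was called for Col1a2 (up 1.11 ± 0.20 from Day3, 2.15-fold) and Col3a1 (up 1.17 ± 0.24, 2.25-fold), and Col14a1 went with them. Of all genes 3.32% were called up at this step. From Day7 to Day14, where 4.57% of genes were called down, Col1a2 fell by 1.47 ± 0.23, Col5a2 by 1.07 ± 0.25, Col4a2 by 1.46 ± 0.25, Col6a3 by 1.04 ± 0.23 and Col14a1 by 1.47 ± 0.24. Both stages have 1 array. Under quantile normalisation the 3 rises to Day7 were 0.66 to 0.94 log2 units and none was called, and of the 5 falls to Day14 only that of Col4a2 was. With the mean of all probe sets the rises to Day7 were 0.76 to 0.94 and not called. Nor were the falls of Col1a2 (-0.87) and Col14a1 (-0.48). The other probe sets of Col14a1 differed by -0.34 and 0.36 from Day7 to Day14. At an equal housekeeping level the rise of Col1a2 (0.95) and the falls of Col5a2 (-0.79) and Col6a3 (-0.76) were not called. Without the second array of Day3 the rise of Col3a1 was 0.93 and not called. Between Day3 and Day21, the nearest stages with 2 arrays each, Col5a2 was the only collagen called, with a fall of 1.56 ± 0.18 (limma adjusted p = 8.22e-06), where 4.45% of all genes were called down.

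The last step, from Day21 to the adult, took 5 collagens down, where 1.2% of all genes were called down. Col3a1 fell by 2.99 ± 0.19, 7.94-fold, Col4a2 by 1.68 ± 0.18, 3.20-fold, Col5a1 by 1.42 ± 0.10, 2.68-fold, Col4a1 by 1.12 ± 0.10, 2.17-fold, and Col1a2 by 1.01 ± 0.16, 2.01-fold (limma adjusted p from 4.83e-08 to 0.00100). Both stages have 2 arrays. The adult means of Col4a2 (5.59) and Col5a1 (6.10) lay under the dim threshold of 6.68, as did those of Col1a1 (5.81) and Col5a2 (5.95). Col1a1 (-0.96 ± 0.14), Col6a3 (-0.91 ± 0.16), Col5a2 (-0.82 ± 0.18) and Col6a1 (-0.66 ± 0.10) also differed at an adjusted p under 0.05 but by less than 1 log2 unit. The other probe set of Col3a1 went down by 0.78 and that of Col4a1 by 2.14, whereas that of Col5a2 differed by 0.083. The other probe sets of Col5a1 were at -0.68 and -0.23, and with the mean of all its probe sets the step was -0.78 and not called. Without the first array of Day21 or of the adult, Col1a2 was at -0.96 or -0.90 and not called, and under quantile normalisation Col1a2 (-0.89) and Col4a1 (-0.98) were not. The adult pool was the lowest of the 14 for 10 of the 19 collagens above the threshold and for 10 of all 42, against 8.44% of all genes and 13.5% of the genes above the threshold. These 10 were Col1a1, Col1a2, Col3a1, Col5a1, Col5a2, Col4a1, Col4a2, Col6a1, Col6a2 and Col6a3. The E11.5 pool was the highest for 8 of 42 members (21% of all genes) and the Day7 pool for 7 (12.9%).

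The type IV genes above the threshold, Col4a1 and Col4a2, had their highest stage means after birth. Fetal against later pools they differed by -0.30 ± 0.23 and -0.56 ± 0.32 and were not called (limma adjusted p = 0.383 and 0.236). Col4a1 and Col4a2 lie next to each other in the genome and form the common type IV trimer. On the chosen probe set Col4a1 had fetal stage means from 8.12 at E16.5 to 8.60 at E17.5. It stood at 9.25 and 8.95 on Day0, 9.38 and 9.21 on Day3, 8.83 on Day7, 8.31 on Day14, 8.57 and 8.54 on Day21, and 7.49 and 7.38 in the adult. The 4 arrays of Day0 and Day3 were above all fetal arrays, and the adult arrays were below all others. From E17.5 to Day0 it differed by 0.51 ± 0.10, under the 1 log2 unit required.

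Col4a2 had its lowest fetal mean at E16.5 (6.05) and read 7.13 at E18.5, 7.59 and 7.19 on Day0, 7.79 and 7.31 on Day3, 8.14 on Day7, 6.68 on Day14, 7.18 and 7.36 on Day21, and 5.65 and 5.54 in the adult. Stage means of Col4a2 from E12.5 to E17.5, on Day14 and in the adult lay under the dim threshold of 6.68. The pair of Col4a1 and Col4a2 correlated at r = 0.83 over 14 pools. The second probe set of Col4a1 varied more in fetal life, with stage means of 8.59 at E11.5, 7.32 at E15.5 and 9.21 at E18.5. It differed from the chosen one in the step to E18.5, where it was 1.01 above E17.5 while the chosen one was 0.36 below, and on Day7, where it reached its highest mean of 10.05. The other type IV genes, Col4a3 to Col4a6, were dim in all pools.

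**Figure D3:**
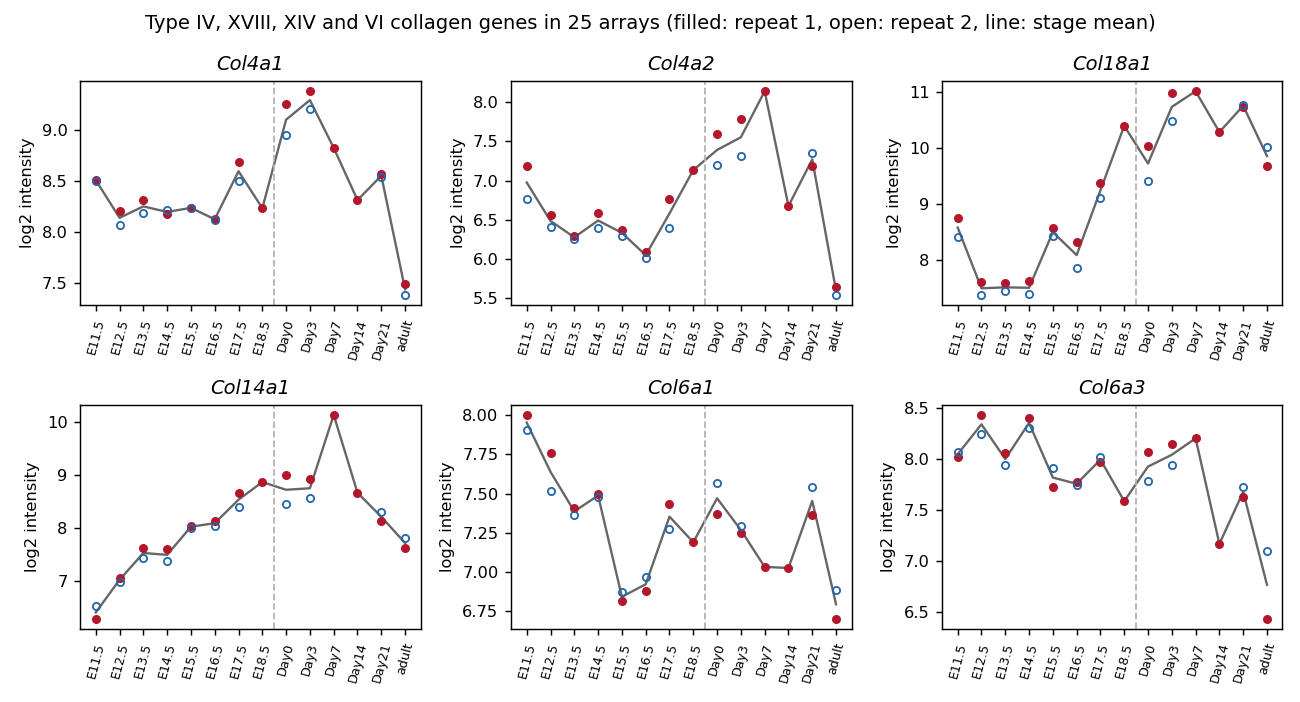
Log2 intensity (y axis) of Col4a1, Col4a2, Col18a1, Col14a1, Col6a1 and Col6a3 by stage (x axis), drawn as filled and open points for the first and repeat arrays with a line through the stage means. Col4a1 is highest on Day3 (9.29), Col18a1 runs from 7.50 at E12.5 to 11.02 on Day7, Col14a1 from 6.42 at E11.5 to 10.14 on Day7, and both type IV genes are lowest in the adult.

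Col18a1, the proteoglycan collagen of basement membranes, was higher after birth and was the only collagen called between the fetal and later pools. Its fetal pools had stage means from 7.50 to 10.40 with a median of 8.30, and the later pools from 9.73 to 11.02 with a median of 10.52. The classes overlapped through E18.5, the single array with 10.40. By array it read 8.76 and 8.41 at E11.5, 7.62 and 7.38 at E12.5, 7.59 and 7.44 at E13.5, and 7.63 and 7.39 at E14.5. It then stood at 8.57 and 8.44 at E15.5, 8.33 and 7.86 at E16.5, and 9.39 and 9.11 at E17.5. After birth the arrays lay between 9.42 on Day0 and 11.02 on Day7, with 9.69 and 10.03 in the adult.

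Fetal against later pools, Col18a1 was lower by 1.98 ± 0.43 log2 units, 3.95-fold (8 against 6 pools, limma adjusted p = 0.00655). Its second probe set gave -2.27. The call held under all alternatives tried, with differences from -2.40 to -1.69. Of all genes 5.01% were called lower and 4.5% higher in the fetal pools. Called steps of Col18a1 were a fall of 1.08 ± 0.22 from E11.5 to E12.5 (1.04% of genes called down), a rise of 1.16 ± 0.22 from E16.5 to E17.5 (0.709% called up), a rise of 1.15 ± 0.27 to E18.5 and a rise of 1.01 ± 0.22 from Day0 to Day3 (1.81% called up). Except for the one to E18.5, each of these steps was no longer called without 1 of its arrays: -0.91 without the first array of E11.5 and -0.97 without the second of E12.5; 0.92 without the second of E16.5 and 1.02 without the first of E17.5; 0.70 without the second of Day0 and 0.77 without the first of Day3. Under quantile normalisation the step to E18.5 was 0.78 and not called.

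Col14a1, a collagen that sits on the surface of fibrils, climbed through fetal life. Its arrays read 6.30 and 6.53 at E11.5, 7.07 and 6.99 at E12.5, 7.63 and 7.44 at E13.5, and 7.61 and 7.39 at E14.5. They went on with 8.05 and 8.01 at E15.5, 8.14 and 8.05 at E16.5, 8.67 and 8.41 at E17.5 and 8.87 at E18.5. A line through the 8 fetal pools rose by 2.25 ± 0.17 over the span, 4.75-fold (limma adjusted p = 0.00102), where 4.4% of all genes were called rising. The call held under each alternative tried, at 1.02 to 2.63. After birth it was at 9.00 and 8.45 on Day0, 8.93 and 8.58 on Day3, 10.14 on Day7, 8.67 on Day14, 8.14 and 8.30 on Day21, and 7.62 and 7.83 in the adult. The step to Day7 was called up by 1.38 ± 0.20, but a second probe set differed by -0.039 at this step and a further one by 1.15. Fetal against later pools Col14a1 differed by -0.95 ± 0.41 and was not called (limma adjusted p = 0.117). It was called without E18.5, at -1.11, and at an equal housekeeping level, at -1.17.

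Type VI collagen forms beaded filaments around cells, and its 3 chains above the threshold were all lowest in the adult. Stage means of Col6a1 lay between 6.79 in the adult and 7.95 at E11.5, those of Col6a2 between 8.15 in the adult and 9.01 at E11.5, and those of Col6a3 between 6.76 in the adult and 8.35 at E14.5. Col6a1 and Col6a2, which lie next to each other, correlated at r = 0.88 over 14 pools. Among the minor types, Col16a1, Col13a1 and Col25a1 were highest in the single E18.5 array (7.20, 6.91 and 6.79), and Col9a1 and Col7a1 varied by 0.85 and 0.39 log2 units over all pools.

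The class comparison gave few calls in the family as a whole. Between the 8 fetal and 6 later pools, 0 of 42 collagens were called higher and 1 lower with limma, where 9.51% of all genes, and 17.9% of those above the threshold, were called either way. At an unadjusted p under 0.05, 8 of 42 differed (19.0%), against 34.2% of all genes. Col1a1 was at 0.90 ± 0.43 (limma adjusted p = 0.159), Col1a2 at 0.67 ± 0.34, Col5a2 at 0.64 and Col3a1 at 0.13 ± 0.55, each with fetal and later pools overlapping. The median difference was -0.06 for the 42 collagens and -0.01 for all genes; it was 0.13 for the fibrillar genes, -0.18 for type IV and -0.06 for the others. The pools of the classes did not overlap for 1 member, the dim Col11a1, at 0.52 ± 0.09, against 4.09% of all genes.

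**Figure D4:**
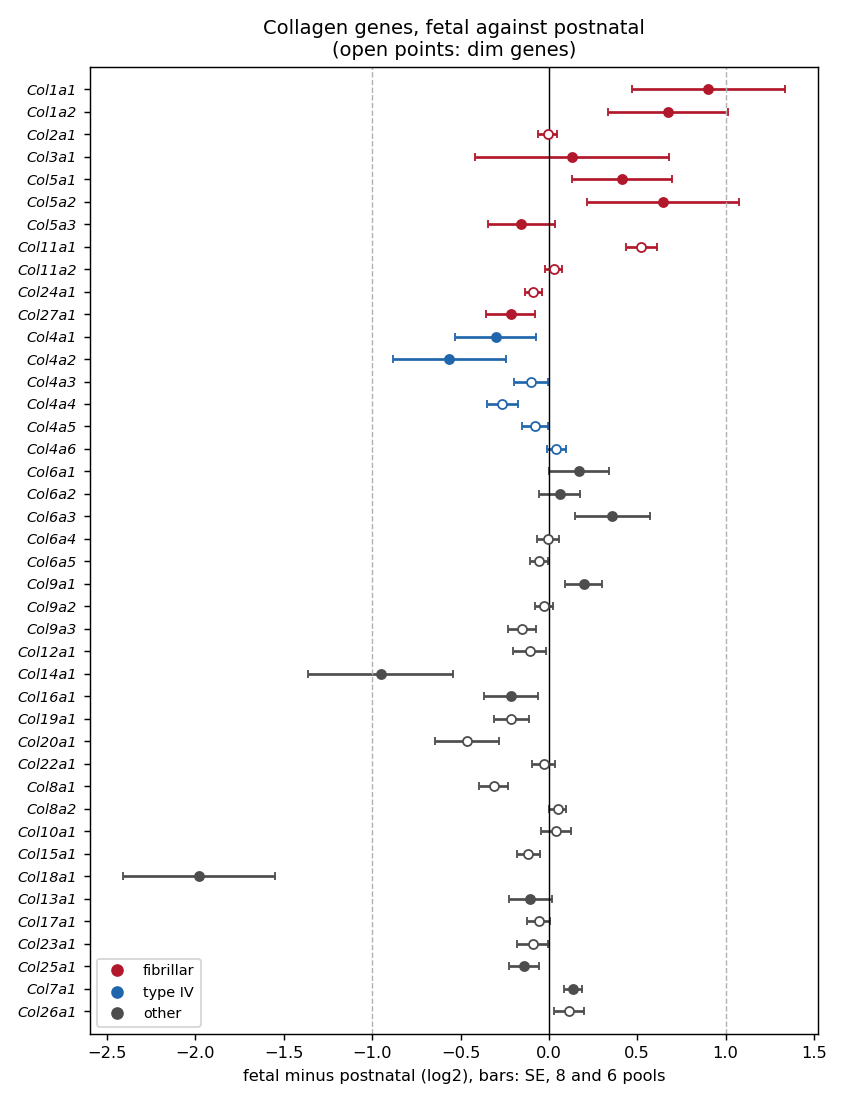
Fetal minus later log2 intensity (x axis) for each of the 42 collagens (y axis), with SE bars from 8 and 6 pools; colours mark fibrillar, type IV and other genes, open points are dim genes and dashed lines stand at 1 log2 unit either way. Col18a1 at -1.98 is the only gene beyond a dashed line; Col1a1 at 0.90 is the farthest to the right.

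Within fetal life 1 of 42 members was called rising (Col14a1) and 1 falling, where 12% of all genes were called falling and 16.4% either way. This was Col5a2, whose fitted line fell by 1.53 ± 0.46, 2.89-fold (limma adjusted p = 0.0402). It lost the call without E11.5, E12.5, E14.5, E16.5 or E17.5, at -1.09, -1.41, -1.50, -1.43 and -1.49. Col1a1 was at -1.68 ± 0.82 and Col3a1 at -1.30, neither called. Col18a1 at 2.02 ± 0.75 was not called either (limma adjusted p = 0.0754). It was called in 5 alternatives and not in 13. These were 2.73 without E11.5, 2.28 under quantile normalisation, 2.40 at an equal housekeeping level, 2.36 with the mean of all probe sets and 2.02 without dim genes. Over the 6 later pools no collagen and no other gene was called (0% of all genes), while 7 of 42 collagens (16.7%) and 14.0% of all genes had an unadjusted p under 0.05. The fitted changes from birth to adult were -2.67 ± 0.60 for Col5a2, -2.10 ± 0.51 for Col5a1, -1.79 ± 0.37 for Col4a1 and -1.57 ± 0.34 for Col1a1.

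A spline through all 14 pools, which also finds courses that rise and fall, called 11 of 42 members, where 29.8% of all genes and 53.5% of those above the threshold were called; all 11 were among the 19. The fitted range was 3.43 log2 units for Col5a2, 3.25 for Col1a1, 3.07 for Col18a1, 2.94 for Col3a1, 2.55 for Col1a2, 2.51 for Col14a1, 1.93 for Col5a1, 1.66 for Col4a2, 1.33 for Col4a1, 1.27 for Col6a3 and 1.01 for Col6a1. The fitted curve was highest at E11.5 for 6 of these, namely Col1a1, Col1a2, Col3a1, Col5a2, Col6a1 and Col6a3, and lowest in the adult for these 6 and for Col5a1, Col4a1 and Col4a2. The adult pool decided several of the calls: without it 6 members were called, and Col1a2 (1.67), Col5a1 (0.81), Col4a1 (0.83), Col6a1 (0.86) and Col6a3 (0.67) were not. Col6a3 was also not called without Day14 (1.15). At an equal housekeeping level Col3a1 (2.09), Col4a1 (0.93), Col6a1 (0.40) and Col6a3 (0.51) were not called, and under quantile normalisation Col3a1 (2.55), Col6a1 (0.61) and Col6a3 (0.89) were not. Col3a1 was not called without any 1 of E16.5, E17.5, E18.5, Day3, Day7 or Day14, at fitted ranges of 2.81 to 2.99, and Col6a1 without any 1 of E11.5, E12.5, E14.5, E15.5, E16.5, Day0 or Day14, at 0.70 to 1.01.

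Partner genes were read against the same shares of all genes, namely 5.01% lower and 4.5% higher in fetal pools, 12% falling and 4.4% rising in fetal life, and 29.8% by the spline. Of 20 measured genes for enzymes and chaperones that process collagen chains in the ER, 5 were called falling in fetal life and 0 rising, and no member was called between the classes or over the later pools. The spline called 8 of them. Serpinh1, the collagen chaperone Hsp47, fell by 3.41 ± 0.59 along the fetal line, 10.6-fold (limma adjusted p = 0.00469), with stage means of 10.41 at E11.5, 9.10 at E14.5, 7.19 at E15.5, 8.15 on Day7 and 6.10 in the adult. Its step from E14.5 to E15.5 was a fall of 1.91 ± 0.20, beside that of Col1a1. The other falling genes included P3h4 (-1.50) and Crtap (-1.32), which belong to complexes that modify collagen in the ER, and P4ha1 (-1.45), a subunit of the main prolyl hydroxylase of collagen. P4hb, the partner subunit of P4ha1 and a general disulfide isomerase, did not follow it. It was at 11.59 at E11.5, lowest at E13.5 (10.64), at 12.16 at E18.5 and highest on Day7 (12.31).

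Genes for propeptide cleavage, crosslinking and fibril assembly went in several directions. Of 19 measured, 0 were called higher and 2 lower in the fetal pools, 1 rose and 1 fell in fetal life, and the spline called 7. Decorin (Dcn), a proteoglycan that binds fibrils, also climbed through fetal life: it rose by 2.52 ± 0.21 along the fetal line and was lower in fetal than later pools by 1.62 ± 0.40 (limma adjusted p = 0.00102 and 0.0128). Fibronectin (Fn1) was lower in fetal pools by 1.57 ± 0.46, and lumican (Lum) fell by 1.04 in fetal life. At the adult step Sparc, a collagen binding matrix protein, fell by 1.94 ± 0.13 and Postn by 1.69 ± 0.20, together with Col3a1.

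Of 17 basement membrane partners measured, 0 were called higher and 1 lower in fetal pools, 3 fell and none rose in fetal life, and 7 were called by the spline. Smoc2 was lower in fetal pools by 1.47 ± 0.36, and Pxdn (-1.86), the peroxidase that crosslinks type IV collagen, Agrn (-1.49) and the dim Nid2 (-1.23) fell in fetal life. At the adult step Nid1, which links laminin to type IV collagen, fell by 2.32 ± 0.24, Smoc2 by 2.29 ± 0.14 and Pxdn by 1.35 ± 0.15, beside Col4a1 and Col4a2.

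Of 9 collagen receptors measured 0 were called in either class or course comparison and 1, Itga1, by the spline. Among 12 genes for collagen breakdown and its inhibitors none was called between the classes, 2 rose and 1 fell in fetal life, and the spline called 4. The gelatinase Mmp2, made by stromal cells, fell 4.01-fold along the fetal line (limma adjusted p = 0.0198). Mmp8 and Mmp9, proteases carried by neutrophils, rose by 3.67 ± 0.53 and 1.59 ± 0.24. Over the later pools no gene of the 5 lists was called.

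Marker lists of the cells that could carry these transcripts were set beside the collagens, with no test. The mean of the stellate and mesenchymal markers, 13 of 15 above the threshold, was 7.49 at E11.5, 7.06 at E14.5, 6.67 at E15.5, 7.50 on Day7, 7.00 on Day21 and 6.72 in the adult, and it correlated with Col3a1 over 14 pools at a Pearson r of 0.82 and a Spearman rho of 0.91. The endothelial mean, 8 of 12 above the threshold, was 6.45 to 6.90 in the fetal pools, 7.40 on Day0, 7.53 on Day7 and 6.84 in the adult, and r was 0.71 with Col4a1 and 0.78 with Col4a2, for which the stellate and mesenchymal mean gave 0.48 and 0.74. The mesothelial mean, with 2 of 8 markers above the threshold, spanned 5.30 to 5.79 and r was 0.86 with Col1a1, for which the stellate and mesenchymal mean gave 0.65. The hepatocyte mean ran from 8.28 at E11.5 to 13.04 in the adult, and r was 0.93 with Col18a1 and 0.77 with Col14a1, while the endothelial mean gave 0.86 and 0.75 with the same genes. For these genes the gut, pancreas and lung mean gave 0.82 and 0.68, and the mean of the dim cartilage and bone markers 0.69 and 0.59. The r values therefore do not single out a cell type. The mean of the 15 housekeeping genes ran from 11.04 at E11.5 to 10.21 in the adult. Its r was 0.93 with Col5a2, 0.89 with Col1a2, 0.84 with Col1a1, 0.75 with Col5a1 and 0.62 with Col3a1, but -0.03 with Col27a1 and -0.79 with Col5a3. All these lists share the pools and arrays with the collagens, and the part of cell makeup or of overall signal in the collagen courses was not tested.

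**Figure D5:**
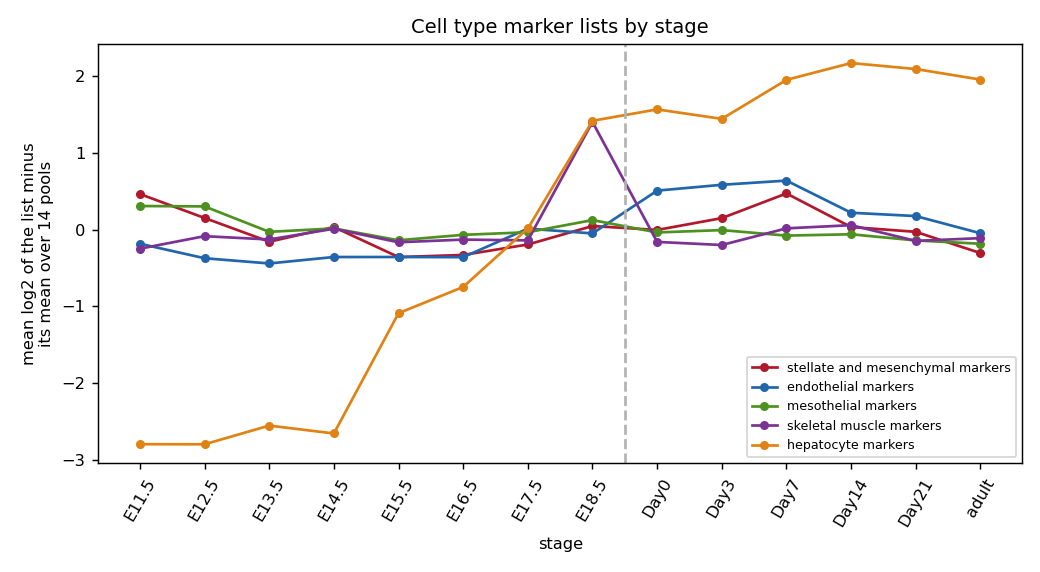
Mean log2 intensity of 5 marker lists minus each list's mean over the 14 pools (y axis), by stage (x axis). The stellate and mesenchymal line is lowest at E15.5 (list mean 6.67), the skeletal muscle line stands out at E18.5 (6.94), the endothelial line is highest on Day7 (7.53), and the hepatocyte line spans 8.28 to 13.26.

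The 6 genes outside the family and above the threshold that were most like Col1a1 by Pearson r over the 14 stage means were Ctdnep1 (0.96), Ybx1, Eprs, Eif4h, Ywhae and Pcbp2 (0.92). Those most like Col3a1 were Vdac3 (0.87), Cdc42, Slc25a4, Fstl1, Pxdn and Ppic (0.84). Those most like Col4a1 were Slc35b3 (0.86), Flvcr2, Bco1, Ifngr1, Sptlc2 and Sema6d (0.83). Of these only Pxdn was in one of the partner lists.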

How the data were processed

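Biotin-labelled RNA of pooled livers was hybridised to Affymetrix mouse arrays, per the labels. The authors deposited a table of 25 arrays and 45101 probe sets holding intensity values on a linear scale, made with RMA per the submitters' processing notes; the version of RMA is not given in the sources used here, nor are its settings. Intensities were converted to log2, the scale for which the tests were planned. The array medians, at 5.41 to 5.53 log2 units, do not show whether the normalisation step of RMA was applied. All columns were matched to samples. Of the probe sets 34958 carried 1 gene symbol, 932 several and 9211 none; symbols were checked against RefSeq by Entrez identifier, which changed 0.

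Repeat arrays were averaged, and stage means were fitted with limma 3.58.1 (lmFit and eBayes) in R 4.3.3 (package data.table, version 1.17.8): fetal against later pools, a slope per embryonic day, a slope per log2(day + 1) after birth, and a natural spline in stage order (3 degrees of freedom). Pools of a class include development within it. Steps between stages were fitted on all 25 arrays, where a stage with 1 array is assumed to vary like those with 2, and their p-values measure only the technical spread between repeats. A call needs an adjusted p under 0.05 over all genes and 1 log2 unit (for slopes over the whole span, for the spline as fitted range). The fits were tested on simulated data. Figures used Python 3.11.15 with matplotlib 3.10.9 and numpy 2.4.6.

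The members, gene lists and tests were chosen with earlier results of these data known. Any member could be named, with full values for those called and the 2 brightest of each class; at most 4 called genes per list and direction were named. Alternatives covered scaling, probe sets, dim genes, variance trend, repeats, pools and time axes; those leaving out single arrays in the steps, and the steps between stages with 2 arrays, were added after seeing the data.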

Additional observations from a re-analysis of the deposited data

Results flagged for a closer look

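In 38 groups of pools, the fetal and the later pools of each collagen above the dim threshold, the highest or lowest pool was compared with its nearest neighbour, relative to the range of the group. A pool stood far from the others in 6 of the 38. The rule flags about 1 in 20 groups of independent values. These groups share pools and arrays and follow development, so no excess over that rate can be read. Col16a1 did so in both classes, at 7.20 at E18.5 with the next fetal pool at 6.46, and at 7.12 on Day7 with the next later pool at 6.62. Col13a1 stood at 6.91 at E18.5 with the next fetal pool at 6.35, and Col25a1 at 6.79 at E18.5 with the next at 6.44. Col9a1 was lowest on Day7, at 6.63, with the next later pool at 7.01. These 5 values come from stages with 1 array. Col5a1 was at 6.10 in the adult, on 2 arrays, with the next later pool at 7.52.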

How the results depend on the processing

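Precision is limited by the design: 1 pool per stage and 1 or 2 arrays per pool. Setting the arrays to an equal level of housekeeping genes moved the median of all genes by -0.21 (fetal against later pools), 0.39 (fetal course) and 0.56 (later course), and the share of calls that were up from 47.3% to 32.6% and from 26.9% to 59.2% (41.5% under quantile normalisation) in the first 2 comparisons. Under it 2 collagens were called lower in fetal pools, 3 rising in fetal life and 18 by the spline, and Col7a1 (-0.078, fetal against later), Col27a1 (0.069, fetal course) and Col6a2 (0.00414, later course), none of them called, changed sign. Under quantile normalisation 2 collagens rose and 0 fell in fetal life, Col27a1 was at 0.10, and the steps held 5 rises and 9 falls, against 8 and 14. With the mean of all probe sets 2 rose and 2 fell in fetal life and 2 steps rose. Without probe sets marked x, s or a, 2 fell in fetal life and 5 steps rose, and Col3a1 at E18.5 (-0.67) and Col14a1 on Day7 (-0.039) had the opposite sign. Without dim genes 2 rose and 2 fell in fetal life, and without the 3 stages with 1 array 3 fell. Leaving out 1 pool at a time gave 1 to 2 collagens lower in fetal pools, 1 to 2 rising and 0 to 3 falling in fetal life and 6 to 12 in the spline; leaving out 1 array gave 7 to 9 rises and 13 to 16 falls among the steps. Repeat numbers did not pair every stage: deviations from the stage means correlated at a median of 0.40 over 55 pairs of stages, above 0.1 in 38, and from -0.57 to 0.73, so not every array correlated best with its own number. With the replicate block the counts of called collagens stayed within 1.5 times, Col3a1 at E18.5 was at 0.95 and not called, and Col5a3 was called by the spline at 1.06. Of the 13 steps, the 8 that touch no stage with 1 array held 2 of the 8 rises and 9 of the 14 falls. The causes were not tested.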
